A study of Bactrocera dorsalis with 6 samples.

Results

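The gene described here is unigene comp29180_c1, a de novo assembled transcript of the oriental fruit fly Bactrocera dorsalis that the study's cytochrome P450 list names CYP4G1. It is 1 of 10799 unigenes in the expression tables and 1 of 92 in that P450 list. It was selected on its measured levels in these libraries, the expected counts and FPKM that follow, so its profile is given as a description and no test was made on it. The name comes from sequence similarity to Drosophila melanogaster and was not tested here.

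In D. melanogaster, CYP4G1 is the P450 that carries out the last step of cuticular hydrocarbon synthesis. Long-chain acyl-CoA, built from acetyl-CoA by fatty acid synthesis, elongation and desaturation, is reduced to an aldehyde, and CYP4G1 removes the carbonyl carbon to leave a hydrocarbon, with electrons from NADPH-cytochrome P450 reductase. The enzyme works in oenocytes, large cells beneath the epidermis, and the hydrocarbons coat the cuticle, where they limit water loss and act in chemical communication. CYP4G15, the other CYP4G gene of that fly, has been described from the nervous system.

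RNA of whole, untreated insects of a laboratory colony, fed liquid artificial diet as larvae and sugar water with torula yeast as adults, was sequenced as 1 library for each of 6 stages, namely eggs, larvae and pupae, and adults as virgin males, as virgin females and as mated females. Eggs, larvae, pupae and virgin adults were sampled daily and the RNA of the days was pooled for the library of the stage. Mated females came from mating cages set up after the daily collections of virgin adults, so they were older than the virgins. Between males and mated females, sex, mating and age therefore cannot be told apart. The stages had 1 library each, so no difference between them had a replicate check, no p-value was computed, and every interval below is a 95% interval that covers counting error only. In whole animals, fewer cells of a type and less RNA per cell cannot be told apart.

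The libraries held 7386960 to 9905262 expected counts, the estimated number of read fragments that belong to each unigene. The virgin female library is called the library labelled female, because its isoform shares of the sex-determination gene dsx were 21.8 percentage points from those of males and 85.4 from those of mated females, and its Spearman coefficient with males over 9596 unigenes was 0.989. Any difference between males and that library is therefore a difference between the libraries so labelled. Cp19, an eggshell gene, was listed at 1105 FPKM in mated females and at 0.12 to 0.67 FPKM in the other 5 libraries.

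The CYP4G1 unigene had 192 expected counts in eggs, 1001 in larvae and 5871 in pupae. It had 27886 counts in the males, 22746 in the library labelled female and 18414 for mated females. The lowest count was in eggs and the highest in males, and each of the 3 adult libraries held more than pupae did. Over all libraries the unigene had 76110 counts, and each of its 6 values was a whole number, as the abundance estimate gives where fragments are not divided between transcripts. The exact Poisson intervals ran from 166 to 221 counts in eggs and from 27560 to 28215 in males, which leaves the egg value as the least precise.

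Scaled for transcript length and depth, the CYP4G1 unigene was listed at 10.7 FPKM in eggs, with an interval of 9.20 to 12.3. The value was 82.0 FPKM in larvae (77.0 to 87.2) and 430 FPKM in pupae (419 to 441). The adults came above all immature stages. Males were listed at 1611 FPKM (1592 to 1630), the library labelled female at 1494 FPKM (1474 to 1513) and mated females at 985 FPKM (970 to 999). FPKM is the number of fragments scaled to the length of the transcript and to the total of the library, here after adjustment with TMM factors. None of the 6 intervals overlapped, so the order from eggs through larvae, pupae, mated females and the library labelled female to males was resolved against counting error, but not against variation between animals, which these libraries do not measure.

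On the bands of expression that the study used, the unigene was low in eggs, high in larvae, very high in pupae and mated females, and extremely high in males and in the library labelled female. The egg value lay just under the lower bound of the moderate band at 11 FPKM, and its interval included that bound. The mated female value lay just under the lower bound of the extremely high band at 1001 FPKM. Both placements turned on scaling. Without TMM factors eggs came to 13.8 FPKM and mated females to 1089 FPKM, each in the next band up.

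The place of the unigene among all others moved in the same direction as its level. It ranked 4843rd of 10799 by FPKM in eggs, with 44.8% of unigenes above it, and 1059th in larvae, with 9.80% above it. It was 246th in pupae, 51st in the males, 58th in the library labelled female and 98th for mated females. The adult ranks depended on the measure. By expected counts males were 39th, the library labelled female 45th and mated females 44th. In the male library 0.463% of unigenes were higher, and the unigene took 0.282% of all expected counts against 0.00260% in eggs.

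**Figure D1:**
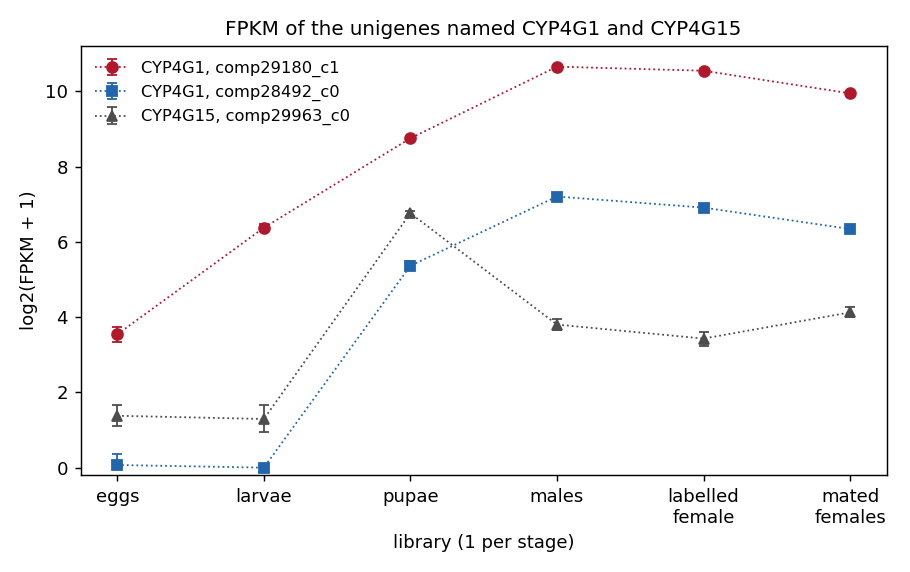
Level of the 3 CYP4G unigenes in each of the 6 libraries as log2(FPKM + 1), with 1 library per stage and bars for 95% counting intervals, which are mostly narrower than the symbols and are not drawn where the count was 0. The CYP4G1 unigene comp29180_c1 climbed from 10.7 FPKM in eggs to 1611 FPKM in males, comp28492_c0 was at or near 0 until pupae, and CYP4G15 was highest in pupae at 107 FPKM.

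Between eggs and larvae the ratio of (FPKM + 1) for the CYP4G1 unigene was 7.12, with counting bounds of 5.88 and 8.65. Between larvae and pupae it was 5.20 (4.76 to 5.67), and between pupae and males 3.74 (3.60 to 3.88). The unigene was thus higher at each of the 3 steps. Which of the first steps was the larger depended on the scaling, since larvae to eggs was 4.87 and pupae to larvae 5.51 without TMM factors. Ratios of neighbouring steps share a library, so they are not independent of each other. A 4-fold or larger rise was shared by 9.91% of the 9596 unigenes with a listed FPKM above 0 for larvae over eggs and by 6.95% for pupae over larvae. For males over pupae, where the CYP4G1 unigene stayed just under 4-fold, 4.19% of unigenes were past it.

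From eggs to males the CYP4G1 unigene spanned 138-fold in (FPKM + 1), with counting bounds of 120 and 160, or 7.11 on the log2 scale. A 4-fold or larger excess of males over eggs was found for 12.2% of unigenes, and 2.84% had a highest and lowest library at least as far apart as the 138-fold of this unigene. A stepwise order, with eggs below larvae, larvae below pupae and pupae below each adult library, was found for 140 unigenes, or 1.46%. Of the 226 unigenes that reached the extremely high band in some library, 77 spanned at least as much and 15 had the stepwise order, which is 6.64% of them. The CYP4G1 unigene is itself counted in each of these numbers.

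Among adults the CYP4G1 unigene was 1.08 times as high in males as in the library labelled female (1.05 to 1.11), a log2 difference of 0.11. The median size of the log2 difference between these libraries was 0.14 over the 3976 unigenes with at least 500 counts in the pair together, and 59.6% of them were at least as far apart as the CYP4G1 unigene. No unigene, 0.0%, was 4-fold higher in males than in the library labelled female. The male value was therefore not set apart from the other by more than most unigenes were.

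Males exceeded mated females 1.64 times (1.59 to 1.68), or 0.71 on the log2 scale, and the library labelled female exceeded mated females 1.52 times. Mated females differed from males in sex, mating and age, which cannot be told apart here. This comparison has a wider background. The median size of the log2 difference between males and mated females was 0.77 over the same 3976 unigenes, 52.7% of them were at least as far apart as the CYP4G1 unigene, and 7.17% of the 9596 unigenes were 4-fold or more higher in males. The 3976 were picked on counts in males and the library labelled female. Unigenes high in mated females only, such as Cp19, are therefore not among them, and this background is incomplete on that side. The eggshell transcript Cp19 had 12700 counts in mated females and 1 to 5 in each other library, and its part in the lower FPKM of CYP4G1 was not tested.

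A single transcript carried the whole profile. The CYP4G1 unigene had 1 isoform, comp29180_c1_seq2, which held 100% of the unigene's counts and FPKM in every library, and no other unigene came from the same assembly component. In this it resembled 6438 of the 10799 unigenes, which also had a single isoform. The length recovered from counts and FPKM was 1882 bases. A change in splicing across development could not be seen for a unigene with 1 retained form, whose share is 100% by construction. The authors had removed transcripts of low abundance or without a likely coding sequence.

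The isoform table, which was normalized on its own, listed this transcript at 10.2 FPKM in eggs, 74.6 in larvae and 436 in pupae, and among adults at 1625 for males, 1531 for the library labelled female and 1084 for mated females. The order of the libraries was the same as in the unigene table. The isoform value was 0.910 times the unigene value in larvae and 1.1 times in mated females, although the counts behind them were identical, so these gaps come from the scaling of the tables. In the isoform table mated females passed 1001 FPKM.

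A second unigene, comp28492_c0, carries the same name. It had 1 expected count in eggs, 0 in larvae and 577 in pupae, with 2666 for males, 1909 for the library labelled female and 1575 for mated females, which is 0.05, 0, 40.2, 146, 119 and 80.1 FPKM. Its adult order was that of comp29180_c1, with males highest, while eggs and larvae held 1 and 0 counts. With 3 counts taken as the floor for a count of 0, pupae at their 577 counts were 172-fold above larvae in scaled counts. This is not a lower bound. The exact Poisson limits, 531 counts in pupae and 3.69 in larvae, would give a smaller ratio.

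The CYP4G1 unigenes differed more in the egg and larval libraries than in the later ones. Of the larval counts assigned to either of them, 0 of 1001 went to comp28492_c0, a share with an exact binomial upper limit of 0.368%. From pupae onward that share was 8.95% in pupae (exact binomial interval 8.26 to 9.67), 8.73% for males (8.41 to 9.05), 7.74% for the library labelled female (7.41 to 8.08) and 7.88% for mated females (7.51 to 8.26). The share in eggs was 0.518% from 1 of 193 counts (0.0131 to 2.85). Per length, comp29180_c1 stood 10.7 to 12.5 times above comp28492_c0 in the 4 later libraries. In eggs it stood 213 times above, a value that rests on 1 count of comp28492_c0. Both unigenes had whole counts in all libraries, and whether they are copies of the gene, alleles or pieces of the assembly was not tested.

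CYP4G15, unigene comp29963_c0, had a different profile. Its counts were 39 in eggs, 24 in larvae and 1980 in pupae, with 303 for males, 201 for the library labelled female and 416 for mated females, or 1.60, 1.45, 107, 13.0, 9.77 and 16.5 FPKM. Pupae were the single high library, 44.2 times larvae (32.8 to 58.7) and 7.77 times males (6.69 to 9.03) in (FPKM + 1). In pupae the CYP4G1 unigene was listed at 430 FPKM, and from pupae to males it went up where CYP4G15 went down.

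Within the P450 list, a family that includes enzymes of hormone synthesis and of detoxification, the share of expected counts taken by the CYP4G1 unigene was 0.668% in eggs (Wilson interval 0.580 to 0.768) and 2.29% in larvae (2.16 to 2.44). In pupae it was 13.7% (13.4 to 14.1). It reached 29.7% for males (29.4 to 30.0), 28.0% for the library labelled female (27.7 to 28.3) and 27.8% for mated females (27.5 to 28.1). The adult shares lay close together although mated females were lower in FPKM. The other P450 unigenes together made 3867 CPM, counts scaled to a common library total, in eggs, 5712 in larvae and 4689 in pupae. They made 6672 CPM for males, 6771 for the library labelled female and 5322 for mated females, so the share of CYP4G1 moved far more than their sum.

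**Figure D2:**
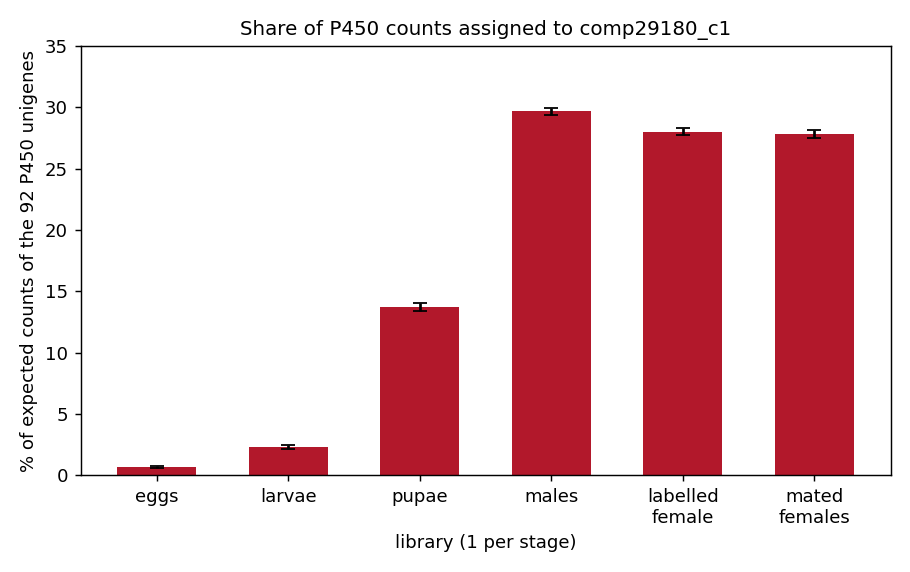
Share of the expected counts of all 92 P450 unigenes that was assigned to the CYP4G1 unigene comp29180_c1, in percent, with 1 library per stage and Wilson 95% intervals as bars. The share was 0.668% in eggs, 2.29% in larvae, 13.7% in pupae and between 27.8% and 29.7% in the 3 adult libraries.

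By FPKM the CYP4G1 unigene was 18th in the P450 list in eggs, 14th in larvae, 2nd in pupae and first in each adult library. The leading P450 of eggs was CYP6A14, comp30145_c0, at 384 FPKM. In larvae and pupae it was CYP12B1, comp29384_c0, of the mitochondrial P450s, at 695 and 633 FPKM. CYP12B1 was also next in line in the adults, at 814 FPKM for males, 927 for the library labelled female and 432 for mated females, where the CYP4G1 unigene was 1.98, 1.61 and 2.28 times as high.

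An excess of males over eggs was common among P450s. Of the 79 P450 unigenes with a listed FPKM above 0, 32 were at least 4-fold higher in males and 2 at least 4-fold lower, and the median log2 ratio was 0.96, against 1173 higher, 905 lower and a median of -0.17 over all 9596. Among the other CYP4 unigenes, the family of CYP4G1, 11 of 18 were 4-fold higher in males, 0 lower, and the median was 2.48. The 138-fold of the CYP4G1 unigene came in a family where most members were higher in males than in eggs.

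The stepwise order was found for 4 of the 79 P450 unigenes, namely the CYP4G1 unigene, CYP12E1 (comp28396_c0) and the CYP28D1 unigenes comp29704_c0 and comp23018_c0, and for 0 of the 18 other CYP4 unigenes, against 1.46% of all unigenes. The order was scored on listed values, here and over all unigenes, without counting intervals. For comp29704_c0 larvae had 40 counts and pupae 50, or 2.45 and 2.74 FPKM, a step within counting error. The CYP4G1 unigene was selected on its levels and the order is its own, so its place among the 4 was given in advance. Another 13 P450 unigenes are listed at FPKM 0 in all libraries although they have counts, and are not in these numbers. In counts scaled by TMM factors, 5 of all 92 P450 unigenes, again with the CYP4G1 unigene among them, had the order, against 1.5% of all 10799 unigenes. The one added was CYP4D8, comp28211_c0, with 0 counts in eggs, 16 in larvae and 69 in pupae, and 217 for males, 170 for the library labelled female and 104 for mated females.

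The P450s of steroid hormone metabolism were looked at as a further group. CYP302A1, CYP306A1, CYP314A1 and CYP315A1 make ecdysteroids in D. melanogaster, and CYP18A1 inactivates them. Of these 5, 0 were 4-fold higher and 1 was 4-fold lower in males than in eggs, with a median log2 ratio of -1.03. Over all unigenes 12.2% were higher and 9.43% lower, so counts among 5 say little. The highest of them was CYP314A1 in eggs, at 31.4 FPKM, and in mated females, at 24.2 FPKM, while CYP18A1 led in larvae at 24.1, pupae at 21.2, males at 12.3 and the library labelled female at 12.2 FPKM.

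Upstream of CYP4G1 in the pathway, 4 unigenes that provide or modify acyl-CoA were followed. They came from the study's sheet of D. melanogaster genes that respond to the CncC/Keap1 detoxification pathway, picked by the gene ontology terms given there, so they do not cover the pathway. The list was made with earlier results of these data known. ATPCL, comp27519_c1, annotated as ATP citrate synthase, which makes acetyl-CoA from citrate, was listed at 74.2 FPKM in eggs, 246 in larvae and 51.7 in pupae, and at 123 for males, 127 for the library labelled female and 91.1 for mated females. Acetyl-CoA carboxylase, CG11198 (comp30206_c0), which commits acetyl-CoA to fatty acid synthesis, was at 29.1, 159, 15.6, 91.3, 92.1 and 39.6 FPKM in the same order. Both peaked in larvae and were lowest in pupae. AcCoAS, comp30400_c1, an acetate-CoA ligase that makes acetyl-CoA from acetate, was at 1.16, 73.0, 5.73, 18.9, 22.1 and 2.84 FPKM and was likewise highest in larvae.

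From larvae to pupae, where the CYP4G1 unigene was 5.20 times higher, these 3 were lower. Larvae stood 4.70 times above pupae for ATPCL (4.39 to 5.04), 9.60 times for CG11198 (8.86 to 10.4) and 11 times for AcCoAS (8.1 to 15), so 3 of the 4 were at least 4-fold lower in pupae, against 6.98% of all unigenes. From pupae to males all of them were higher again. The fourth, the stearoyl-CoA desaturase CG15531 (comp25306_c0), which puts a double bond into acyl chains, was at 4.94 FPKM in eggs, 21.5 in larvae and 48.1 in pupae, and at 85.0 for males, 76.9 for the library labelled female and 63.5 for mated females. Of the 4 it was the one with the stepwise order of CYP4G1, in the same sequence of adults, with a 14.5-fold excess of males over eggs (11.2 to 18.8). A further unigene of that sheet, comp22898_c0, carries the same acetate-CoA ligase term as AcCoAS and had been left out of the list. Its values stand with those of the unigenes nearest to CYP4G1. With it, 3 of 5 were 4-fold lower in pupae than in larvae, 1 was 4-fold higher and 2 had the stepwise order. No acyl-CoA reductase, elongase or P450 reductase was followed.

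**Figure D3:**
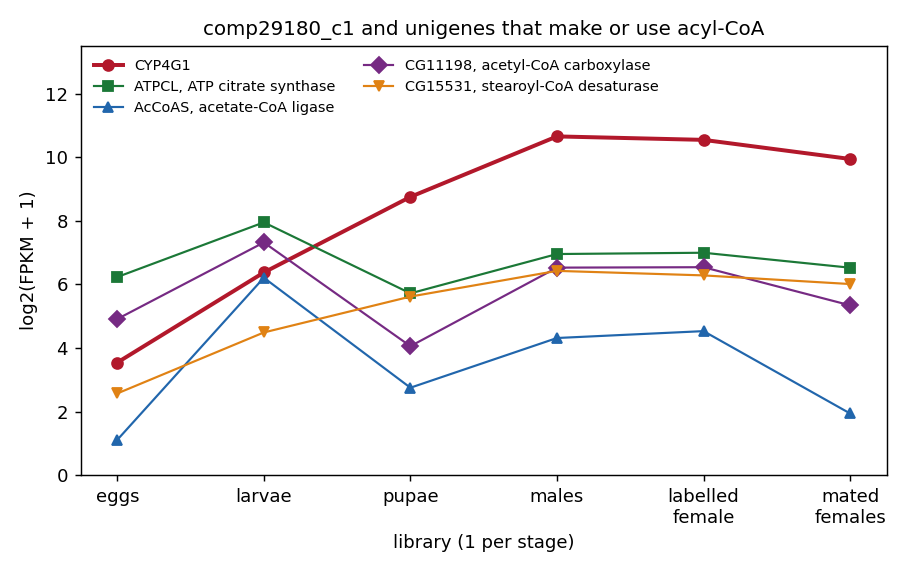
Levels of the CYP4G1 unigene comp29180_c1 and of the 4 acyl-CoA unigenes in each library as log2(FPKM + 1), with 1 library per stage and no error drawn. ATPCL, AcCoAS and CG11198 were highest in larvae and dipped in pupae, while the desaturase CG15531 rose from 4.94 FPKM in eggs to 85.0 FPKM in males beside CYP4G1. The unigene comp22898_c0, with the same acetate-CoA ligase term as AcCoAS, is not drawn. It was at 17.5 FPKM in larvae and 98.4 FPKM in pupae.

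Cuticle unigenes, taken from the same sheet and from Swiss-Prot matches in the study's annotation, were set beside the CYP4G1 unigene because its product coats the cuticle in D. melanogaster. They were picked with earlier results of these data known and do not cover the cuticle genes, so the counts below describe the listed unigenes only. Of the 7 with a listed FPKM above 0, of 8 followed, 5 were at least 4-fold higher in pupae than in larvae, 3 were 4-fold higher in males than in eggs, and 0 had the stepwise order, against 6.95%, 12.2% and 1.46% of all unigenes. Among the listed cuticle unigenes Cpr100A, comp28916_c2, led in eggs at 45.4 FPKM, in males at 721, in the library labelled female at 639 and for mated females at 6.72. Larval cuticle protein 8, comp14767_c0, led in larvae at 38.5 FPKM and in pupae at 1688 FPKM. In mated females, 5 of the 7 were at least 4-fold below males, against 7.17% of all unigenes, while the CYP4G1 unigene still stood at 985 FPKM there.

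The unigenes with the most similar profile were taken by Euclidean distance over the 6 libraries between values of log2(FPKM + 1), each centred on the median of its unigene. The 10 nearest lay at 1.33 to 1.94, and the eleventh was also at 1.94, against a median distance of 7.18 over 9595 unigenes. Males were the highest library for 8 of the 10, and 9 had the stepwise order, both of which follow from how they were picked. The exception to the order was comp25277_c0, the second nearest, at 71.8 FPKM in pupae and 44.7 FPKM in mated females. Their own highest values ran from 49.7 to 398 FPKM, all below the 1611 of the CYP4G1 unigene.

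The nearest on this scale was comp27798_c0, listed at 0.16 FPKM in eggs, 16.5 in larvae and 64.0 in pupae, and at 393 for males, 349 for the library labelled female and 129 for mated females. The third was comp22898_c0, paired in the study's ortholog table with FBgn0039184 and given acetate-CoA ligase activity by similarity in its CncC/Keap1 sheet, at 3.11, 17.5, 98.4, 264, 244 and 111 FPKM. Its ratio of males to eggs was 64.4 (52.2 to 79.6). From larvae to pupae it was 5.37 times higher (4.56 to 6.35), a likeness to CYP4G1 that its choice as a near profile fixed. The others were comp27298_c0, comp22235_c0 (paired with FBgn0025620), comp28740_c0, comp24920_c0, comp29328_c0, comp25944_c0 and comp25937_c1. None of the 10 is in the P450 list. Likeness over 6 libraries is a weak criterion. Of the 10, 3 remained when Pearson's coefficient replaced the distance, and the nearest unigene was another one in 4 of 6 alternatives: comp26661_c0 with a pseudocount of 0.1, comp29328_c0 by Pearson's coefficient, comp25277_c0 without TMM factors and comp22898_c0 in TMM-scaled counts.

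**Figure D4:**
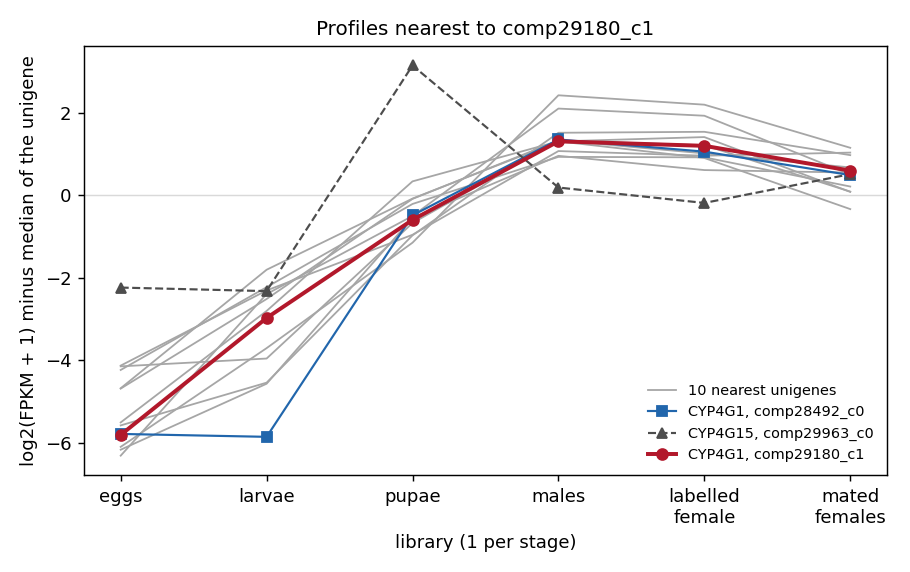
Profiles over the 6 libraries as log2(FPKM + 1) minus the median of each unigene, with 1 library per stage and no error drawn, for the CYP4G1 unigene comp29180_c1, its 10 nearest unigenes and the 2 other CYP4G unigenes. The CYP4G1 unigene ran from -5.81 in eggs to 1.31 in males, inside the band of the 10 nearest, whereas CYP4G15 peaked in pupae at 3.14.

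Among P450s the nearest profiles were those of CYP12E1 (comp28396_c0), at a distance of 2.36 and 25th among all unigenes, and of CYP28D1 (comp23018_c0), at 2.47 and 30th. CYP4AC2 (comp21057_c0) followed at 2.75, the second CYP4G1 unigene comp28492_c0 at 2.89 and the CYP12E1 unigene comp30152_c0 at 3.39. On this scale the larval value accounts for most of the gap between both CYP4G1 unigenes, at -2.97 for comp29180_c1 and -5.85 for comp28492_c0. Adding 1 to FPKM hides a gap in eggs, where comp28492_c0 was listed at 0.05 FPKM from 1 count. In plain FPKM comp29180_c1 was 213 times as high there. CYP4G15 was at a distance of 5.51 and 693rd.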

How the data were processed

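RNA of 6 stages was sequenced as 1 TruSeq library each. The authors filtered the reads, assembled them with Trinity, kept coding transcripts and aligned with bowtie (0.12.7 per the submitters' processing notes). They deposited RSEM expected counts, not normalized (RSEM 1.2.0 per those notes), and FPKM values scaled with TMM factors, for 10799 unigenes and 20666 isoforms. The paper's methods name another RSEM version for the abundance of each library. Names come from the study's supplementary lists.

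TMM factors and lengths were recovered from the ratio of counts to FPKM. Ratios used FPKM + 1, and their bounds are the widest that both Poisson intervals allow. The 1203 unigenes listed at FPKM 0 throughout have no egg counts and were left out of shares. The unigene and the P450, CYP4, steroid hormone, acyl supply and cuticle lists, and the alternatives, were chosen with earlier results of these data known. Named were the CYP4G unigenes, the 10 nearest unigenes and 5 nearest P450s, each library's leading P450, steroid and cuticle unigene, and every acyl supply unigene. CYP4D8, the CYP28D1 unigene comp29704_c0 and comp26661_c0 fall outside this rule and were added after their values were seen. Python 3.11.15, R 4.3.3, edgeR 4.0.16 and DESeq2 1.42.0 were used, and the calculation was tested on simulated data.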

Additional observations from a re-analysis of the deposited data

How the results depend on the processing

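The order of the 6 libraries was the same in 5 of 5 scalings of the CYP4G1 unigene, and 0 of 30 alternative ratios turned direction. Of these, 21 stayed within the counting interval and 9 left it. Without TMM factors the ratio of larvae to eggs was 4.87, of males to mated females 1.37 and of males to eggs 101. In counts scaled to the library total these were 5.0, 1.37 and 104. Males to mated females was 1.75 with DESeq2 size factors and 1.5 with isoform FPKM, where pupae to larvae was 5.77. The background moved more. Larvae over eggs past 4-fold fell to 6.29% without TMM factors. With a pseudocount of 0.1 the shares were 11.5% for pupae over larvae, 7.18% for males over pupae, 0.719% for males over the library labelled female and 16.4% for males over mated females. In TMM-scaled counts of all unigenes, chosen after the data were seen, they were 10.2%, 5.60%, 0.0185% and 11.9%, and 16.5% for males over eggs. Of the 10 nearest unigenes, 4 remained with a pseudocount of 0.1, 3 with Pearson's coefficient and 7 to 9 under the others. With comp22898_c0 added to the acyl supply list, also chosen after the data were seen, unigenes in stepwise order were 2 instead of 1. The causes of these shifts were not tested. The isoform share was 100% under both measures, which is fixed for a unigene with a single isoform. No paired analysis was possible because each stage had 1 library, and no replicate could be left out. Depth limits mainly the egg value, which rests on 192 counts.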
